A study of Mus musculus with 2 samples.

Results

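Mir144, Mir451a and Mir486 are the microRNA genes best known from red blood cells, and they were read here as a measure of blood in brain tissue. They were chosen by gene name, as 3 of the 2202 microRNA genes listed for each library. The libraries are short RNA (microRNA-seq) of left cerebral cortex, taken from 2 female mice aged 36 days, 1 library per animal, both of the hybrid strain B6CASTF1/J, which carries a CAST genome beside the B6 one. The labels name no treatment, genotype or second tissue, so both animals form a single group and the only difference that can be described is that between mouse 1 (replicate 1) and mouse 2 (replicate 2). Whether the animals were perfused to clear blood before dissection is not given in the sources used here, and a blood sample was not analysed here, so no level below is turned into an amount of blood.

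MicroRNAs are short RNAs cut from hairpin precursors that guide Argonaute proteins to target transcripts, mainly through their seed, bases 2 to 8 of the mature strand. Mir144 and Mir451a are made from a shared transcript that the red cell transcription factor GATA1 switches on. Mir451a is unusual because its short hairpin is cut by Argonaute 2 itself and not by Dicer, and mice that lack the gene have impaired red cell maturation under stress. Mir486 lies in Ank1, which encodes ankyrin, a protein of the red cell membrane skeleton, and it is also known from skeletal and heart muscle. Mature red cells have no nucleus but keep their microRNAs, so tissue that holds blood yields them.

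The mature sequences show which product a short read at each of these hairpins can come from. They are taken from RefSeq (GRCm38.p6), where entries for Mir144 and Mir451a were matched by symbol, at the same coordinates as in the GENCODE M21 annotation. Mir486 had no entry and is given by name only. Seeds are in capitals, and miR-451b is shown because its gene lies opposite Mir451a.
miR-451a: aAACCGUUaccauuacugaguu
miR-144-3p: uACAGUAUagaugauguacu
miR-144-5p: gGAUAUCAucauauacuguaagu
miR-451b: uGGGAGCAgcaagagaaccgu

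All 4 seeds differ from each other, and none of them is the seed of any other of the 1738 mature entries of that table. Bases 2 to 7 of miR-144-3p also stand in miR-101a-3p (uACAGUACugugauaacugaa, seed in capitals), whose gene Mir101a was looked up after the values of the erythroid genes had been seen. Mir101a stood at 195 CPM in mouse 1, against 179 CPM in mouse 2, where CPM is a gene's counts scaled to the library's total over all microRNA genes, as in counts per 1000000. It had more counts than Mir144 in both mice.

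The hairpins differ in how the mature strand sits in them. Mature stretches are in capitals.
Mir144 hairpin: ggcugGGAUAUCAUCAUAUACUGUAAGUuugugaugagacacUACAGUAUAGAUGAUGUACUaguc
Mir451a hairpin: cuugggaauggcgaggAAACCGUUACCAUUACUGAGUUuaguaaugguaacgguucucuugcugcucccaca

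In the fold predicted by RNAfold, the 66-base Mir144 hairpin has 27 base pairs (−28.6 kcal/mol), and its 2 mature strands lie on either side of a loop of 6 bases that neither enters. The 72-base Mir451a hairpin has 30 base pairs (−43.3 kcal/mol). Its 22-base mature strand fills all 4 bases of the loop, with 17 of its bases paired. Mir144 has GC content of 37.9%, Mir451a 47.2% and Mir486 63.3%.

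On mm10, Mir144 (ENSMUSG00000065401.1) occupies chromosome 11, 78073005 to 78073070, and Mir451a (ENSMUSG00000070065.1) occupies 78073170 to 78073241. Both are on the plus strand, 99 bases apart, and lie in no protein-coding gene. The nearest protein-coding gene, Eral1, is on the minus strand, and its near end lies 134 bases past Mir451a. Mir486 (ENSMUSG00000070084.3) occupies chromosome 8, 23142555 to 23142682, on the plus strand. It lies within an intron of Ank1 and overlaps no Ank1 exon. Mir451a and Mir486 each have an annotated microRNA gene on the opposite strand of the same DNA. Mir451b covers all 72 bases of Mir451a, and Mir3107 covers 90 of the 128 bases of Mir486.

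**Figure D1:**
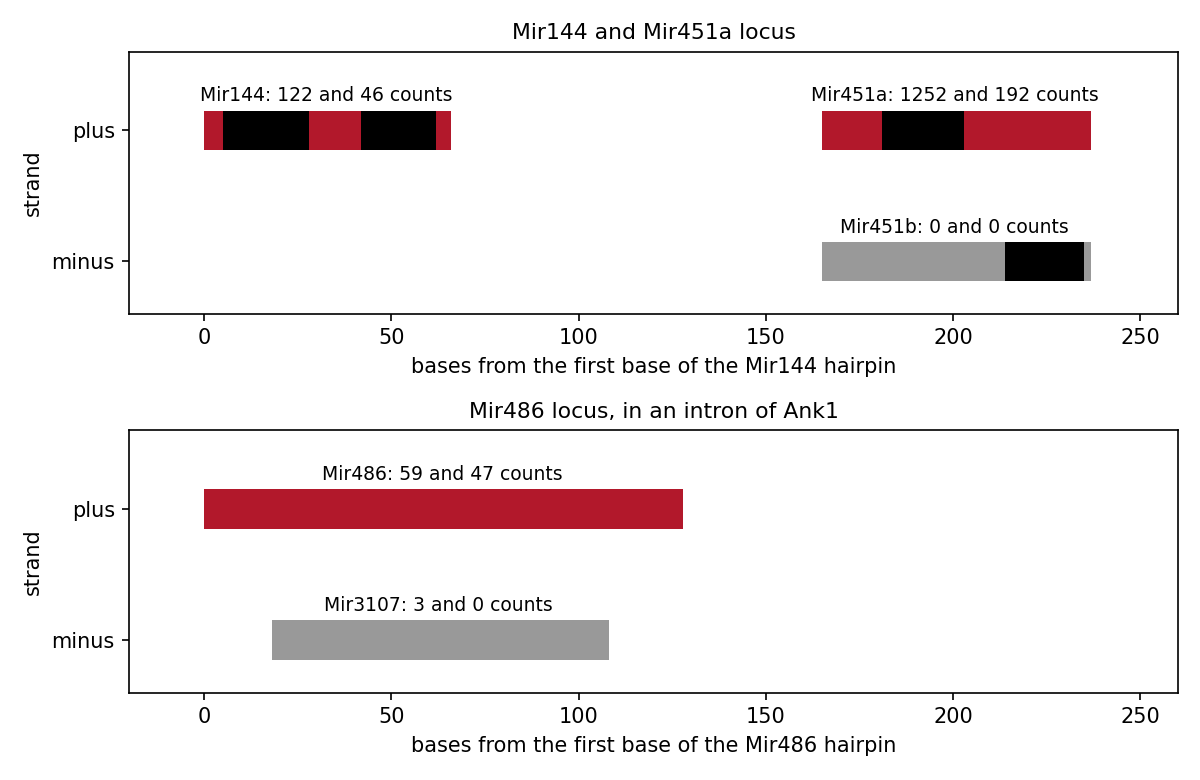
Map of both loci to scale: the x axis gives bases from the first base of the Mir144 hairpin (top) or the Mir486 hairpin (bottom), and the y axis gives the strand. Red bars are the 3 erythroid genes, grey bars their opposite-strand genes, and black the RefSeq mature strands of Mir144, Mir451a and Mir451b (those of Mir486 and Mir3107 are not drawn); the counts are those of mouse 1 and then mouse 2, and nearly all lie on the plus strand.

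Strand decided which gene received these reads. Mir451a had 1252 sense counts in mouse 1, against 192 in mouse 2, while Mir451b had 0 in both, so that levels up to 1.55 CPM in mouse 1 or 1.61 CPM in mouse 2 remain possible (3 counts, counting error only). Mir486 had 59 and 47 sense counts, and Mir3107 had 3 in mouse 1 and 0 in mouse 2. Mir486 thus took 95.2% of the counts of its pair in mouse 1 and 100% in mouse 2. Counted without regard to strand, Mir451a and Mir486 were each listed at 0 in both mice. That column holds 134651 ambiguous reads in mouse 1 and 147893 in mouse 2, and the sense column holds 0. Mir144, which has no opposite gene, kept 122 and 46 counts in both columns.

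Shared sequence limits these counts unequally. The longest run of bases that Mir144 shares with any other annotated hairpin is 13 (Mir5121), and that of Mir451a is 16 (Mir451b), shorter than the 22 bases of miR-451a. Mir486 shares a run of 22 bases with Mir3107. A read that lies wholly in this run has the same letters in both genes, and reads that map to several places entered no gene count. The number of such reads for Mir486 is unknown, so its level may be too low relative to the other 2.

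Mir451a had the most sense counts of the 3 genes in both mice. It stood at 649 CPM in mouse 1 (95% Poisson interval 613 to 686) and at 103 CPM in mouse 2 (89.0 to 119). Mir144 stood at 63.2 CPM in mouse 1 (52.5 to 75.5) and at 24.7 CPM in mouse 2 (18.1 to 32.9). Mir486 stood at 30.6 CPM in mouse 1 (23.3 to 39.4) and at 25.2 CPM in mouse 2 (18.5 to 33.5). Mouse 1 was thus the higher animal for Mir451a and Mir144 by more than counting error, and the intervals of Mir486 overlapped. All intervals cover counting error only, since no molecular identifiers are named and PCR copies count as reads.

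As means over n = 2 mice, the levels were 376 ± 386 CPM (SD) for Mir451a, 43.9 ± 27.2 CPM for Mir144 and 27.9 ± 3.78 CPM for Mir486. The SD of Mir451a exceeded its mean, so these means, which do not pair the genes within a mouse, do not separate the 3 genes. Within each mouse, Mir451a had more counts than Mir144 or Mir486. By level, Mir451a ranked 116th of 2202 genes in mouse 1 and 209th in mouse 2. Mir144 ranked 223rd and 277th, and Mir486 ranked 257th and 274th. All 3 reached 10 CPM in both mice, as did 304 of the 2202 genes. Together they held 1433 counts in mouse 1 (0.0742% of the library) and 285 counts in mouse 2 (0.0153%).

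**Figure D2:**
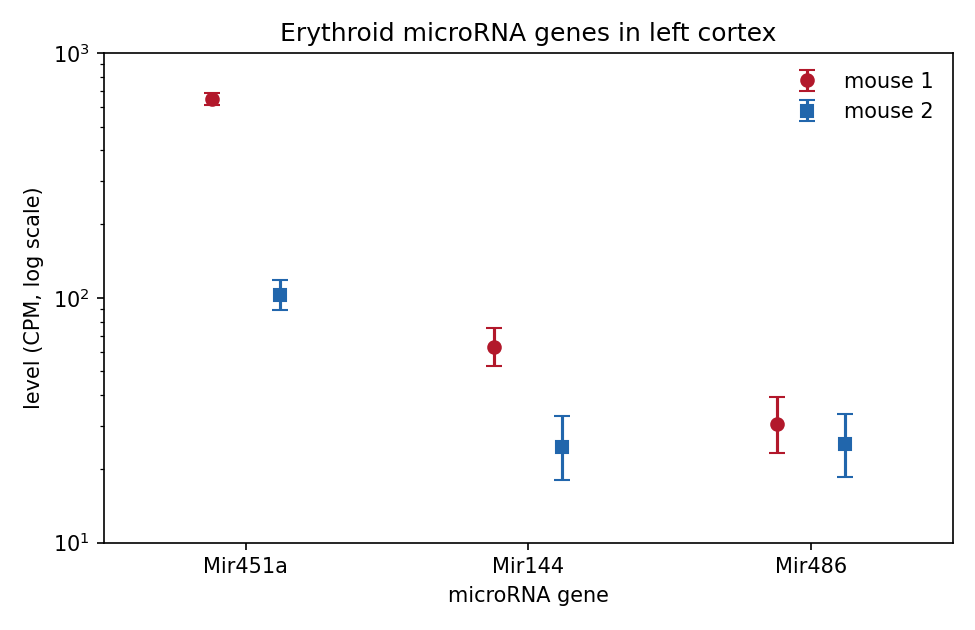
Level of each gene in CPM (y axis, log scale) in mouse 1 (red circles) and mouse 2 (blue squares), with 95% Poisson intervals of the counts as bars. Mir451a stands at 649 and 103 CPM, Mir144 at 63.2 and 24.7 CPM, and Mir486 at 30.6 and 25.2 CPM, where the bars overlap.

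The 3 genes did not differ between the mice by the same factor. For each gene the pair of counts was compared by a two-sided exact binomial test against TMM-scaled library sizes, adjusted by Benjamini-Hochberg over 324 tested genes (10 CPM or more on average), with a call at adjusted p under 0.05 and at least 2-fold. This test compares 2 libraries for counting error and has no replicate check. By it, 19.4% of the tested genes were called, 5.25% higher in mouse 1 and 14.2% higher in mouse 2. Of the 3 genes, 2 were called, both higher in mouse 1, on a locus that they share.

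Mir451a was 6.51-fold higher in mouse 1 than in mouse 2 (95% interval 5.59 to 7.62, adjusted p = 1.21e-189 by the exact test). Among the 324 tested genes, only Mir301 lay further towards mouse 1, with 384 CPM in mouse 1, against 39.2 CPM in mouse 2. Mir144 was 2.65-fold higher in mouse 1 than in mouse 2 (1.87 to 3.80, adjusted p = 8.45e-09 by the exact test), and 11 tested genes, itself included, lay at least as far in that direction. Mir486 was 1.25 times as high in mouse 1 as in mouse 2 (0.840 to 1.88) and was not called (adjusted p = 0.334 by the exact test). With 59 and 47 counts, the interval holds ratios on either side of 1. The median log2 ratio of the 3 genes was 1.40 (the value of Mir144), beside 0.0038 over the 324 tested genes.

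Ratios between the genes within a library do not depend on how libraries are scaled. Mouse 1 had 10.3 counts of Mir451a for each count of Mir144 (95% interval 8.52 to 12.5), and mouse 2 had 4.17 (3.01 to 5.89). For each count of Mir486, mouse 1 had 21.2 counts of Mir451a (16.3 to 28.0) and mouse 2 had 4.09 (2.96 to 5.75). The ratio of Mir144 to Mir486 was 2.07 in mouse 1 (1.50 to 2.87) and 0.979 in mouse 2 (0.637 to 1.50). In mouse 2, the counts of Mir144 and Mir486 were therefore level within counting error, at 46 and 47. In mouse 1 the order of counts Mir451a, Mir144, Mir486 was clear of it. Reads of Mir486 that map to several places entered no count, so its place by level is uncertain in both mice.

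Mouse 1 over mouse 2, the ratio of Mir451a to Mir144 differed 2.46-fold (conditional exact 95% interval 1.65 to 3.61). The ratio of Mir451a to Mir486 differed 5.19-fold (3.35 to 7.99), and that of Mir144 to Mir486 differed 2.11-fold (1.23 to 3.64). All 3 intervals leave out 1, for counting error only. Over all tested genes, 74.7% passed the exact test alone, which also takes only counting error into account. The share of other gene pairs whose interval leaves out 1 was not computed, so this count is no result about the 3 genes. Mir451a made up 87.4% of the counts of the 3 genes in mouse 1 and 67.4% in mouse 2, Mir144 made up 8.51% and 16.1%, and Mir486 made up 4.12% and 16.5%. The set was thus more dominated by Mir451a in mouse 1.

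**Figure D3:**
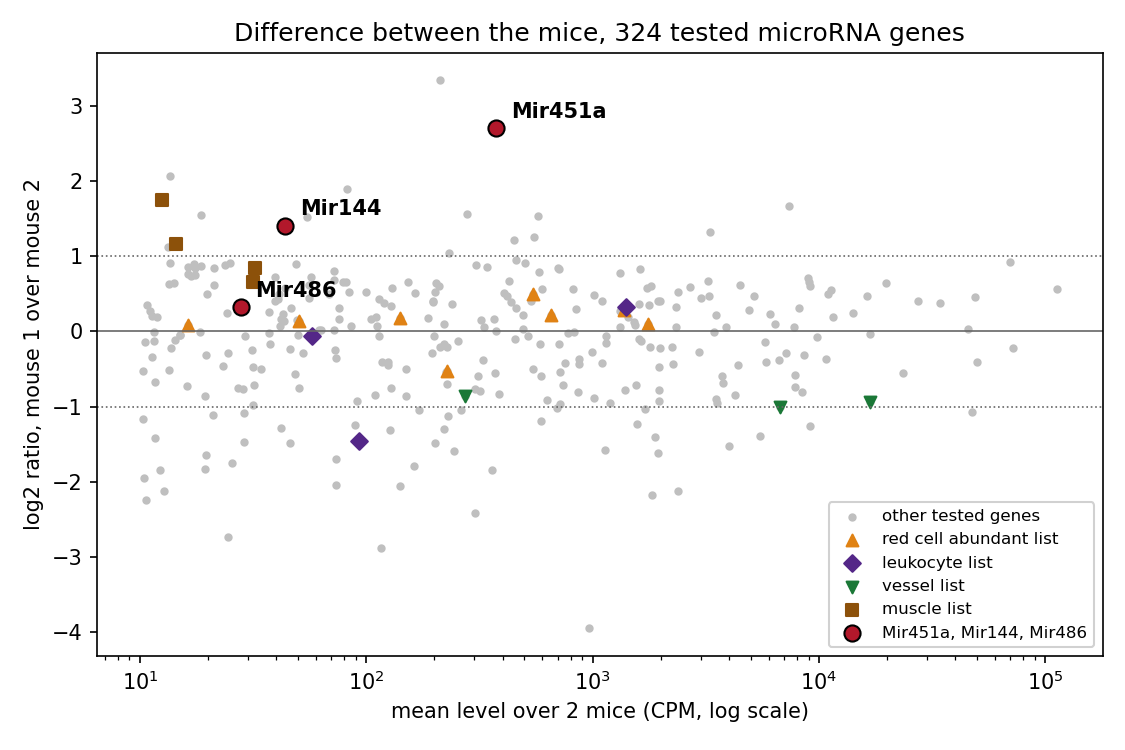
Mean level over both mice (x axis, CPM, log scale) against the log2 ratio of mouse 1 over mouse 2 (y axis) for the 324 tested genes, with dotted lines at 2-fold. Mir451a and Mir144 lie above the upper line, Mir486 lies near 0, and the other marker lists are coloured.

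Other tested marker genes of blood did not move as Mir451a did. The microRNAs also known to be abundant in red cells were Mir15b, Mir16-1, Mir16-2, Mir25, Mir92-1, Mir92-2, Mir93, Mir185 and Mir363. Brain cells express most of them too. Of these 9, 8 were tested and 0 were called by the exact test with 2-fold. Over all tested genes, 19.4% were called, 5.25% higher in mouse 1, so 0 calls among 8 genes is no result about the list. Of the 8, 5 passed the exact test alone, at an unadjusted and at an adjusted p under 0.05, as did 74.7% of all tested genes (242 of 324, adjusted p), so this count is no result about the list. The list summed to 4997 CPM in mouse 1, against 4539 CPM in mouse 2. Mir16-1 with Mir16-2, and Mir92-1 with Mir92-2, are copies whose shared reads may have entered no gene count. The sum, and ratios to it, may thus lack part of the list's reads. Mir92-1 was furthest towards mouse 1, at 630 CPM in mouse 1, against 463 CPM in mouse 2 (log2 ratio 0.49, interval 0.37 to 0.62), and Mir15b lay the other way, at 183 and 272 CPM (−0.52, −0.72 to −0.32). Mir185 (1778 and 1717 CPM), Mir93 (1490 and 1270 CPM) and Mir16-1 (696 and 616 CPM) were the other leading members above 100 CPM, with Mir363 at 7 counts in mouse 1 and 1 in mouse 2. Set against this list's summed counts, Mir451a was higher in mouse 1 by 2.52 on the log2 scale (2.29 to 2.75), Mir144 by 1.22 (0.72 to 1.74) and Mir486 by 0.14 (−0.44 to 0.73).

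White cell microRNAs gave a mixed pattern. Of 5 genes, 3 were tested and 1, Mir142, was called, higher in mouse 2 (48.2 CPM in mouse 1, against 136.8 CPM in mouse 2, log2 ratio −1.46, adjusted p = 2.41e-18 by the exact test). Over all tested genes, 14.2% were called higher in mouse 2, so 1 call is no result about the list. Mir150, a lymphocyte microRNA and the highest of the list, stood at 1531 CPM in mouse 1, against 1264 CPM in mouse 2 (0.33, 0.25 to 0.40), under 2-fold. Mir155 had 107 and 111 counts, Mir223, the myeloid cell microRNA, had 11 and 22, and Mir142b had 0 in both. The list summed to 1640 CPM in mouse 1, against 1472 CPM in mouse 2. Relative to that sum, Mir451a was higher in mouse 1 by 2.50 on the log2 scale (2.26 to 2.74).

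Vessel microRNAs moved opposite to Mir451a. All 3 tested genes of 5 had lower levels in mouse 1, and 1, Mir143, was called. Over the 324 tested genes, 162 had a log2 ratio above 0 and 14.2% were called higher in mouse 2. Mir126a, made in endothelial cells, stood at 11276 CPM in mouse 1, against 22380 CPM in mouse 2 (log2 ratio −0.94). Mir143, known from the smooth muscle of vessel walls, stood at 4400 and 9110 CPM (−1.0), and its neighbour Mir145a stood at 189 and 355 CPM (−0.86). These 3 genes lie near the 2-fold line, so the call changes with scaling: with DESeq2 size factors 0 of them were called by the exact test with 2-fold, and with all reads as library size all 3 were called. Mir126b and Mir145b had 0 counts in both mice. The list summed to 15865 CPM in mouse 1, against 31844 CPM in mouse 2, so that Mir451a relative to it was 3.66 higher in mouse 1 on the log2 scale (3.44 to 3.89), Mir144 2.36 (1.86 to 2.88) and Mir486 1.28 (0.70 to 1.87).

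Muscle microRNAs are of interest beside Mir486 because muscle makes it too. All 4 tested genes of 9 were higher in mouse 1 in value. Of these, 2 were called: Mir208a (38 counts in mouse 1 and 17 in mouse 2) and Mir208b (37 and 11). Over the 324 tested genes, 162 had a log2 ratio above 0 and 5.25% were called higher in mouse 1. With so few genes, these counts are no result about the list. With all reads as library size, Mir208a was not called (log2 ratio 0.98). Both called genes passed the filter of 10 CPM on average only through mouse 1, which favours that direction. Mir208a stood at 19.7 CPM in mouse 1, against 9.12 CPM in mouse 2, and Mir208b at 19.2 and 5.90 CPM. Mir206 had 74 and 47 counts, and Mir499 had 79 and 44. Mir1a-1, Mir133a-1, Mir133a-2 and Mir133b, all at 0 in both mice, and Mir1a-2, with 0 and 1 counts, have near-identical copies whose reads may have entered no gene count. The list summed to 118 CPM in mouse 1, against 64.4 CPM in mouse 2. Relative to it, Mir451a was higher in mouse 1 by 1.78 on the log2 scale (1.38 to 2.18), and the interval held 0 for Mir144 (0.48, −0.13 to 1.10) and for Mir486 (−0.60, −1.27 to 0.08).

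**Figure D4:**
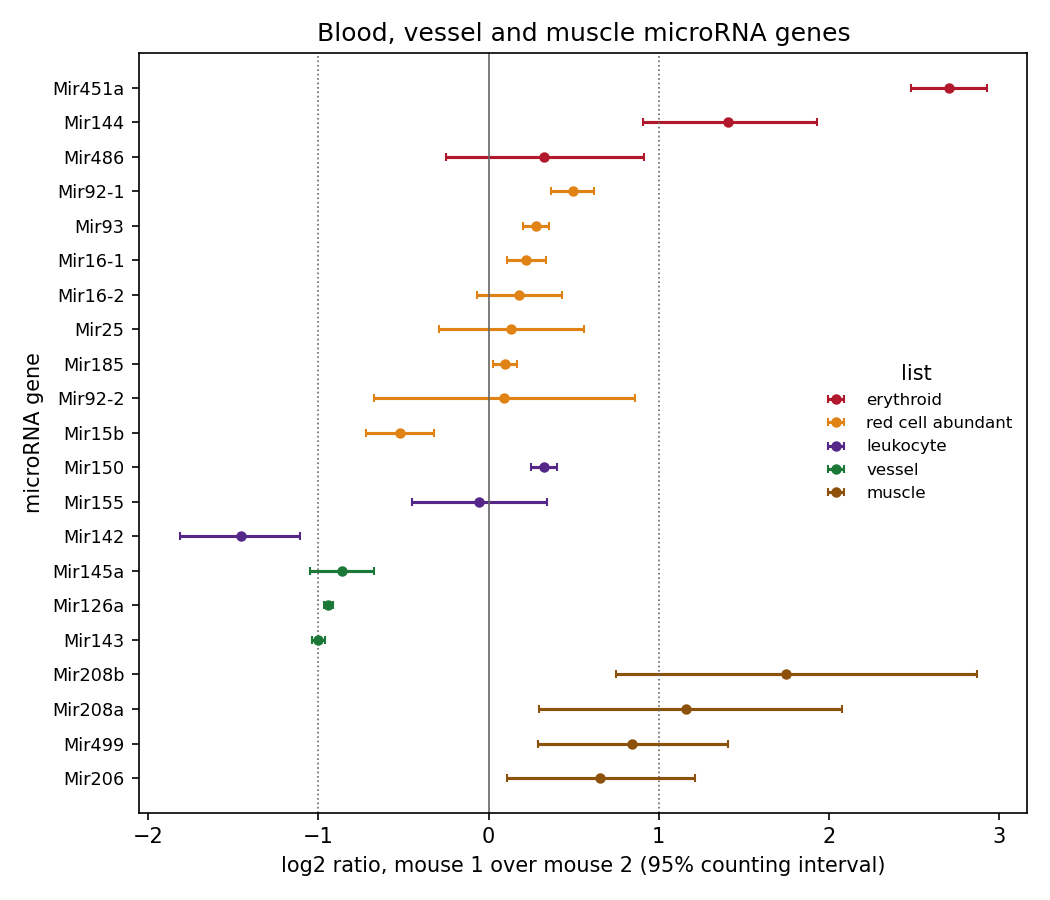
Log2 ratio of mouse 1 over mouse 2 (x axis) with 95% counting intervals for each tested gene (y axis) of the erythroid, red cell, white cell, vessel and muscle lists, with dotted lines at 2-fold. Mir451a stands to the right of every other gene shown by value, Mir486 spans 0, and the 3 vessel genes lie on the side of mouse 2.

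The median log2 ratios of the tested genes were 0.16 in the red cell list, −0.055 in the white cell list, −0.94 in the vessel list and 1.0 in the muscle list. The muscle value rests in part on Mir208a and Mir208b, which passed the filter only through mouse 1. The part that vessel, white cell and muscle content played in the differences of Mir451a and Mir144 was not tested. In bulk tissue, more cells of a type and more RNA per cell cannot be told apart, and with 1 library per mouse an animal cannot be told apart from its library. The tissue label was checked on neuron microRNAs, where Mir139 stood at 132003 CPM in mouse 1, against 92535 CPM in mouse 2, Mir132 at 29894 and 64860 CPM, Mir128-1 at 16282 and 17178 CPM, Mir138-1 at 3633 and 5139 CPM and Mir128-2 at 3717 and 3294 CPM. Mir138-2 (3203 and 2188 CPM) lay the other way from Mir138-1, and Mir212 stood at 1066 and 1228 CPM. Mir124a-1, Mir124a-2 and Mir124a-3, copies of a defining neuronal microRNA, had between 1 and 4 counts each. Reads that such copies share may have entered no gene count, so these low counts do not show that the microRNA is scarce. The pairs Mir128-1 and Mir128-2, and Mir138-1 and Mir138-2, may lack shared reads in the same way. The list summed to 189800 CPM in mouse 1, against 186426 CPM in mouse 2. Library totals were 1930234 sense counts for mouse 1, against 1863876 for mouse 2, and the libraries differed by far more than sampling noise (chi-square 245 per degree of freedom).

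Likeness of pattern over 2 mice can be measured only as closeness of the log2 ratio. Nearest to Mir451a (2.70) were Mir1930 (2.07), Mir301 (3.34) and Mir200b (1.89), each more than 0.6 away from it. Nearest to Mir144 (1.40) were Mir370 (1.33), Mir8112 (1.53) and Mirlet7c-1 (1.54). Nearest to Mir486 (0.33) were Mir668 (0.33), Mir150 (0.33) and Mir28a (0.31). The interval of Mir144 (0.90 to 1.93) holds all 3 of its neighbours, and that of Mir451a (2.48 to 2.93) holds none of its own. The wide interval of Mir1930 (1.05 to 3.23, 42 and 10 counts) does hold the value of Mir451a. Those of Mir301 (2.99 to 3.71) and Mir200b (1.50 to 2.30) do not. Mir1930 passed the filter only through mouse 1, at 21.8 CPM, against 5.37 CPM in mouse 2.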

How the data were processed

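The authors deposited read counts per microRNA gene, 1 table without header for each library. Per the submitters' README notes, the tables rest on mm10 and GENCODE M21. Aligner, counter and trimming are not given in the sources used here, nor are molecular identifiers. The 3 count columns were read from their values as unstranded, sense and antisense, and sense counts were used. Each table's opening lines name no gene and entered neither library sizes nor tests: 32.1% of 7082096 reads were unmapped and 34.6% mapped to several places in mouse 1, against 27.3% and 37.2% of 6253481 in mouse 2.

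From the deposited counts, CPM was computed over sense totals. The mice were compared with SciPy 1.17.1 using TMM factors from edgeR 4.0.16, with Clopper-Pearson intervals of fold changes and conditional exact intervals of ratios of ratios. edgeR's quasi-likelihood test needs replicates per mouse and was not used. DESeq2 1.42.0 gave alternative size factors. The test was checked on simulated data. Hairpins were folded with RNAfold 2.7.2.

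The 3 genes and the marker lists were chosen with earlier results of these data known. Genes named were the 3 genes, opposite-strand genes, all listed markers (those of at least 100 CPM by rule, up to 5 a list, the others after their values were seen) and the 3 tested genes nearest each member in log2 ratio. Both libraries carry a single donor code but different animal numbers in the labels, so each was taken as its own mouse, and the spread between them may be partly technical.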

Additional observations from a re-analysis of the deposited data

How the results depend on the processing

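The calls for Mir451a, Mir144 and Mir486 kept their direction and their side of the threshold under each alternative that gave a value: total counts, DESeq2 size factors or all reads as library size, a linear GC trend removed, and a lower filter or none. The log2 ratio of Mir451a ran from 2.53 to 2.79 over 6 alternatives, Mir144 from 1.23 to 1.71 over 7, and Mir486 from 0.046 (GC trend removed) to 0.33 over 6, with adjusted p from 0.334 to 0.939. All reads as library size shifted every log2 ratio by −0.18. Between 60 and 76 genes were called in all, against 63. The unstranded column gave Mir144 alone, so it gave no ratio for Mir451a, Mir486 or the pairs of genes. In it the mean level of Mir451a and Mir486 was 0 CPM, the share of the 3 genes was 0.00474%, and Mir144 stood at 47.4 CPM. Scaled to 1000000 mapped reads, multi-mapping reads included, every level is lower because the denominator is larger: Mir451a stood at 151, Mir144 at 17.7 and Mir486 at 11.3, and the share was 0.0180%. Leaving out each mouse in turn gave 103 to 649 CPM for Mir451a, 24.7 to 63.2 for Mir144, 25.2 to 30.6 for Mir486 and 0.0153% to 0.0742% for their share, so the means of Mir451a and Mir144 depend on which mouse is taken. No paired analysis was possible because the labels give a single group. Depth limits Mir486 most, at 59 and 47 counts.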
